A study of Mus musculus with 8 samples.

Results

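Cells hold their cholesterol within narrow limits by making it, taking it up, exporting it and storing it, and 34 genes of these routes were examined in the retina of mice that lack lysophosphatidylcholine acyltransferase 1 (Lpcat1), which remodels membrane phosphatidylcholine by adding back a fatty acid. The genes were chosen by what their products do, with earlier results of these data known. They were 17 enzymes of synthesis, 5 genes of the machinery that senses sterols, 2 liver X receptors (LXR) and 3 efflux transporters. The others were 2 sterol hydroxylases, and 5 genes of uptake, lysosomal export, transport and esterification. All 34 had a probe on the array, of 20018 genes that could be named, and 33 were bright enough to be tested, of 14937. None of the 33 was called different between genotypes, where 3.47% of all genes tested were, and the 95% intervals of all 17 synthesis enzymes lay within 1.2-fold either way, although those of Idi1 and Lss passed that limit under some other settings. Abcg1, a transporter that exports cholesterol, was the only one of the 33 with an adjusted p under 0.05, where 6.62% of all genes tested had one, and stood at 86.1% of the WT level, a fold too small to be called.

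Expression was measured in whole retina of 2-week-old mice, in 4 Lpcat1 WT and 4 Lpcat1 knockout (KO) samples of the C57BL/6 strain, each on 1 Agilent array with Cy3-labelled RNA. Per the study's methods, the knockout line was made on C57BL6/N and crossed to C57BL6/J to remove rd8, a Crb1 mutation that itself damages the retina, and mice homozygous for rd8 were not used, which leaves carriers of 1 copy possible in either genotype. The knockout is global, and the labels do not say whether each sample is 1 animal. The p-values therefore set a difference against the spread between these samples, which may not be the spread between animals. A level here is log2 of the spot signal minus the 75th percentile of the same array, values after a plus-minus sign are SDs over 4 arrays, and differences are KO minus WT on that log2 scale with limma's standard error (SE), 95% interval and Benjamini-Hochberg adjusted p.

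Cholesterol is built from acetyl units through mevalonate, squalene and lanosterol. When sterols in the endoplasmic reticulum are scarce, the escort protein Scap carries SREBP-2 (gene Srebf2) to the Golgi apparatus, where it is cut, and the released part enters the nucleus and turns on the synthesis enzymes and Insig1. When oxysterols build up, they bind LXR, which turns on the efflux transporters Abca1 and Abcg1 and also Srebf1. The blood-retina barrier leaves the neural retina to make much of its own cholesterol, Müller glia supply part of it, and photoreceptors place it in the disc and plasma membranes of their outer segments.

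The start regions of 5 genes are shown, Hmgcs1, Srebf1 and Abca1 because they hold a match to a sterol regulatory element or an LXR element, and Idi1 and Mvk because they are the synthesis enzymes with the highest and the lowest difference, in which only CCAAT boxes are marked. The sequences are the 250 bases before the RefSeq start (build GRCm38.p6), written 5' to 3' on the gene's strand. They are Hmgcs1 at chr13:119690101-119690350 on the plus strand, Idi1 at chr13:8885356-8885605 on the plus strand, Mvk at chr5:114444019-114444268 on the plus strand, Srebf1 at chr11:60210472-60210721 on the minus strand, 1 of 3 listed starts of this gene, and Abca1 at chr4:53159896-53160145 on the minus strand. Capitals mark a sterol regulatory element in Hmgcs1, an LXR element in Srebf1 and Abca1, and the CCAAT boxes, read as ATTGG where they lie on the opposite strand, in Hmgcs1, Idi1, Mvk and Srebf1.
Hmgcs1: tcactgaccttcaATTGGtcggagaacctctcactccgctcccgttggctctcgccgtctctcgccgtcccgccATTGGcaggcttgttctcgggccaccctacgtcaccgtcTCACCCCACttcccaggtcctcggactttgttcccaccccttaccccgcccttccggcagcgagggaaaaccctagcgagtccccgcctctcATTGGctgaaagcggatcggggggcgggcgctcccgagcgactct
Idi1: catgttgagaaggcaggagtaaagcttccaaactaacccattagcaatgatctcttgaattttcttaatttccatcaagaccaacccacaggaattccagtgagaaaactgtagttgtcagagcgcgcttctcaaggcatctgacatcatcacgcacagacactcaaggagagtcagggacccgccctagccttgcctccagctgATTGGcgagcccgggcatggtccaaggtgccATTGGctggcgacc
Mvk: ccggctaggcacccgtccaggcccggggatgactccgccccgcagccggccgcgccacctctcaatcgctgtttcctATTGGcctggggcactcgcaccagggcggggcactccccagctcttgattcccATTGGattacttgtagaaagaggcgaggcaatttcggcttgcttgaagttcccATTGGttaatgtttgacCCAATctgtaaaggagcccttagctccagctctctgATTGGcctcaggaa
Srebf1: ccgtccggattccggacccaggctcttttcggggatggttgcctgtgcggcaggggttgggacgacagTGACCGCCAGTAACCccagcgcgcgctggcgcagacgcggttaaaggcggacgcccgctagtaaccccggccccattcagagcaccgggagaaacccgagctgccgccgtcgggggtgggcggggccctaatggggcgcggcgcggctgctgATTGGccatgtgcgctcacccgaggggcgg
Abca1: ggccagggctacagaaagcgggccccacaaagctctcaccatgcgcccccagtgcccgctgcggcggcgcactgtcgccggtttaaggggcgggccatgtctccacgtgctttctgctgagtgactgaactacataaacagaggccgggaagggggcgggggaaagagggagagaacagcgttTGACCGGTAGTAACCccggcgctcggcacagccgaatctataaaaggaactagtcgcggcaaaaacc

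Windows from 250 bases before to 50 bases after the start were held for 27 of the 34 genes, and were not held for Abcg1, Abcg4, Fdft1, Fdps, Npc1, Sqle and Stard4. Both strands were searched. The CCAAT box, the site of the factor NF-Y that works beside SREBP, occurred in at least 1 window of each of the 14 synthesis enzymes with a window, in 82.35% of their 17 windows against 37.41% of all 32851 windows. Of the 32 boxes in 1 window a gene, 29 lay before the start and 20 of these lay within 100 bases of it. The GC box, written GGGCGG, was in 82.35% of the synthesis windows and 35.66% of all. The sterol regulatory element TCACNCCAC was found in the window of Hmgcs1 alone among these genes (1 of 36 windows), against 1.24% of all windows, and the E-box TCACGTGA was found in 0 of the 36 and 0.97% of all. The element GGTTA followed after 5 bases by GGTCA, whose letters were chosen after the Srebf1 window had been read, was present in Srebf1 and Abca1, 2 of 36 windows, and in 16 of all 32851 (0.05%). The stricter LXR repeat, AGGTCA 2 times with 4 bases between, was in 0 of the 36 windows and 0.02% of all. No 2 of these motifs overlapped in a member window (0 overlaps). A match describes the letters of a window, and the windows are not alike in base content.

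**Figure D1:**
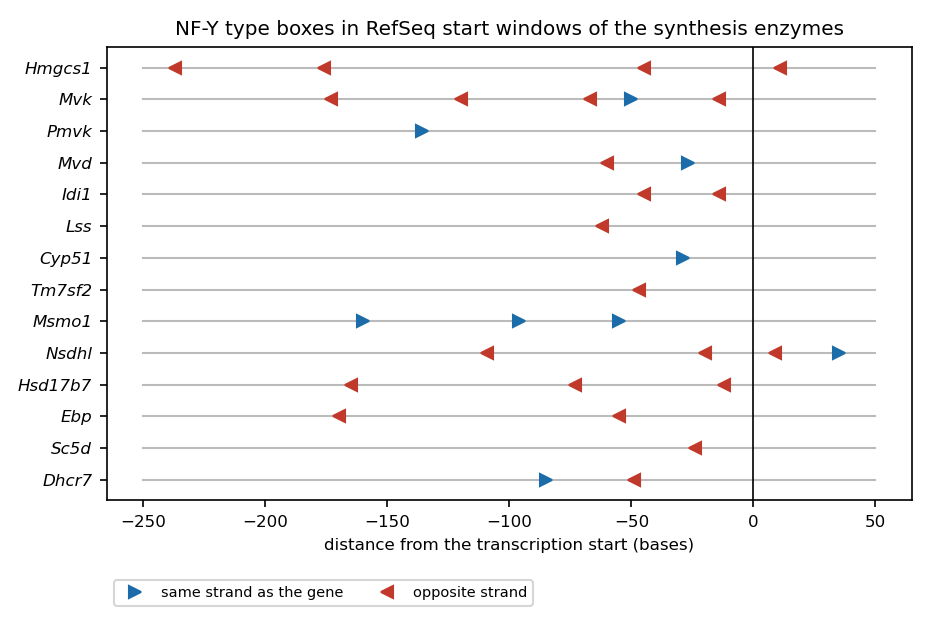
Positions of CCAAT boxes in the start windows of the 14 synthesis enzymes that have one, as distance in bases from the transcription start (vertical line). Arrows pointing right mark boxes on the gene's strand and arrows pointing left the opposite strand, with 1 to 5 boxes a gene and 29 of 32 before the start.

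Probes well above background numbered 35031 to 36373 in WT and 33113 to 35619 in KO, where 3 of the 4 KO arrays had fewer than any WT array. No spot was saturated, and all arrays shared 1 slide, with the WT arrays in one row and the KO arrays in the other, so row and genotype cannot be told apart. The Lpcat1 probe read -0.41 ± 0.025 in WT and -0.87 ± 0.064 in KO, which is 72.5% of WT (limma, adjusted p = 0.0036), and its place relative to the deleted part was not examined. All 10 rod markers, which define the most numerous cells of the retina, passed the filter on dim probes. Cell type markers differed between genotypes, and these values stand beside every result below: 3 of 10 rod markers were called lower in KO, among them Nr2e3 (-0.50) and Sag (-0.36), with their summed linear level, relative to the 75th percentile signal, at 1982 to 2053 in WT and 1615 to 1786 in KO. Of 12 microglia markers 6 were called higher, led by Tyrobp (0.65), C1qc (0.57) and C1qb (0.54), with sums of 13.6 to 14.7 against 17.2 to 17.8. Of 9 Müller glia markers 2 were called higher, Kcnj10 (0.31) and Clu (0.30), with sums of 255 to 267 against 302 to 306, and of 7 cone markers 2 were called higher, with sums of 207 to 212 against 235 to 246. No marker was called of astrocytes (0 of 4), retinal pigment epithelium (0 of 7 tested), oligodendrocytes (0 of 5 tested), endothelium (0 of 5), bipolar cells (0 of 5), amacrine and horizontal cells (0 of 6), ganglion cells (0 of 5) or blood (0 of 2 tested). Even so, sums were higher in KO for astrocytes (5.71 to 6.88 in WT, 7.37 to 7.58 in KO) and amacrine and horizontal cells (73.3 to 74.9, 79.9 to 83.1). The same held for bipolar cells (209 to 215, 216 to 221) and ganglion cells (147 to 150, 151 to 158). Sums were lower in KO for endothelium (18.7 to 19.5, 16.7 to 18.3) and overlapped for retinal pigment epithelium, oligodendrocytes and blood.

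Calls needed more than a 1.2-fold difference together with an adjusted p below 0.05. By this rule 0 of the 33 genes was called in either direction, where 3.47% of the 14937 genes were called, 1.99% higher and 1.49% lower. Counted over the 33972 probes tested, the share was 2.92%, with 1.38% higher and 1.54% lower. At an unadjusted p under 0.05 in limma 6 of the 33 passed, Idi1, Nr1h3 and Lrp1 with higher values in KO and Mvk, Srebf1 and Abcg1 with lower ones, against 26.2% of all genes (10.9% higher, 15.3% lower), and the t-test of the study's methods called 0 and had 7 at an unadjusted p under 0.05. The median difference of the 33 was -0.011 (range -0.22 to 0.23), beside a median of -0.023 over all genes tested, and the median size without sign was 0.049 against 0.080. Values of the genotypes did not overlap for 4 of the 33, Lrp1 with KO higher and Mvk, Srebf1 and Abcg1 with KO lower, where 21.2% of all genes showed no overlap (8.78% with KO higher, 12.4% with KO lower). At this scaling the 95% interval lay within 1.2-fold either way for 30 of the 33, all but Nr1h3, Abcg1 and Soat1, and for 63.6% of all genes. The median SE was 0.049 for the 33 and 0.054 over all genes, and the sizes and shares were not compared at like SE or level. In whole tissue, fewer cells of a type and less RNA per cell cannot be told apart.

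**Figure D2:**
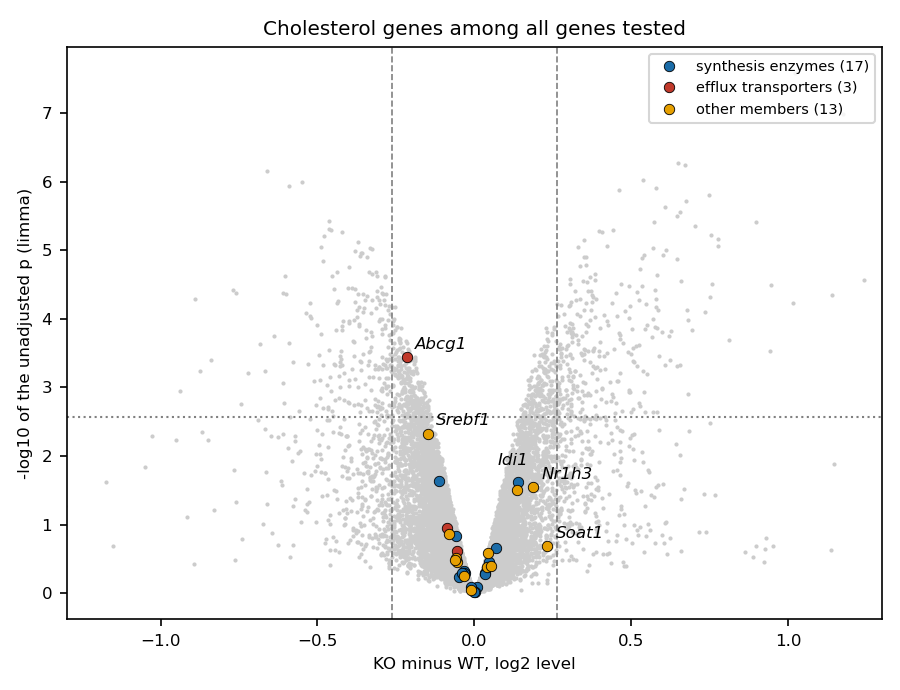
Each grey point is 1 of the 14937 genes tested (14 lie outside the plotted range of 1.3 either way), by its KO minus WT difference on the log2 scale and the -log10 of limma's unadjusted p, with synthesis enzymes in blue, efflux transporters in red and the other cholesterol genes in orange. Dashed lines mark 1.2-fold and the dotted line the p at which the adjusted p reaches 0.05, and 1 of the 33 genes, Abcg1, lies above the dotted line while none lies beyond both limits.

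Of the 17 synthesis enzymes 0 was called, 7 had a difference above 0 and 10 below it, though another scaling or background correction turned the sign of 8 of them. Their median difference was -0.0059, with a range from -0.11 (Mvk) to 0.14 (Idi1), and all 17 intervals lay between -0.247 and 0.256, inside the 1.2-fold limit of 0.263. That of Idi1 ended just short of the limit and passed it under each of the 5 other scaling and background settings, at 0.269 with the authors' values to 0.320 after normexp, where 16 of 17 stayed inside. With 1 array left out 15 to 17 stayed inside, and with no filter on dim probes 15, Idi1 and Lss being the exceptions, and the methods' t-test put Lss alone outside. Averaged over the 17 enzymes and set against the WT mean of each, the arrays read -0.021 to 0.015 in WT and -0.030 to 0.023 in KO. The WT and KO arrays overlapped in this average. The sign of so small a median changed with the scaling: it was 0.017 after quantile normalization and -0.029 after normexp background correction.

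The 7 enzymes from acetyl units to squalene had a median difference of -0.0059. Hmgcs1, which joins acetyl-CoA to acetoacetyl-CoA at the head of the pathway and is a standard readout of SREBP-2, read 3.95, 3.99, 3.89 and 3.93 on the WT arrays and 3.91, 3.98, 3.92 and 3.98 on the KO arrays. The 4 KO values lay inside the WT range. Its difference was 0.0092 (SE 0.039, 95% interval -0.081 to 0.099, limma adjusted p = 0.91), and its sign turned under 1 of 5 scaling and background settings.

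Mvk, mevalonate kinase, read 3.73, 3.80, 3.74 and 3.68 in WT and 3.59, 3.68, 3.60 and 3.61 in KO. Every KO value was below every WT value, with the highest KO array (3.676) just below the lowest WT array (3.678). The difference was -0.11 (SE 0.041, interval -0.21 to -0.020, adjusted p = 0.139 in limma), and a second probe of the gene gave -0.11. Idi1, the isomerase that makes dimethylallyl diphosphate, read 1.56, 1.61, 1.62 and 1.59 in WT and 1.78, 1.77, 1.79 and 1.60 in KO. The first 3 KO replicates were above all WT arrays and the fourth lay within the WT range. The difference was 0.14 (SE 0.051, interval 0.024 to 0.26, adjusted p = 0.141 in limma). Mvk and Idi1, both in the mevalonate branch of the pathway, thus had differences of opposite sign, and neither was called. Over the 24 alternatives the difference of Mvk ran from -0.17 after normexp, the only setting with an adjusted p under 0.05 (0.0382 in limma), to -0.075 after quantile normalization, and that of Idi1 from 0.12 to 0.19 with no adjusted p under 0.05.

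The other 4 genes of this branch had differences between -0.057 and 0.068. Pmvk, which adds a second phosphate to mevalonate, differed by 0.068 (interval -0.049 to 0.18). Mvd, which removes the carboxyl group, differed by -0.057 (interval -0.14 to 0.024). Fdps, which builds farnesyl diphosphate, differed by -0.030 (interval -0.13 to 0.069), and Fdft1, squalene synthase and the first step committed to sterols, by -0.0059 (interval -0.13 to 0.11). The intervals of all 4 included 0.

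The 10 enzymes from squalene to cholesterol had a median of -0.0063 and a range of only -0.049 to 0.046. Sqle, squalene epoxidase and a slow step of the pathway, read 3.20, 3.33, 3.24 and 3.31 in WT and 3.24, 3.24, 3.28 and 3.19 in KO. The genotypes overlapped, and the difference was -0.032 (SE 0.043, interval -0.13 to 0.066, adjusted p = 0.694 in limma). Lss, which closes the rings to lanosterol, had the widest interval of the synthesis enzymes, -0.25 to 0.15 around -0.049, and its WT arrays alone ranged from -0.35 to -0.038. The enzymes that strip methyl groups from lanosterol differed by 0.034 (Cyp51), 0.0010 (Tm7sf2, a sterol reductase), 0.036 (Msmo1), -0.031 (Nsdhl) and 0.046 (Hsd17b7). A second Nsdhl probe gave -0.17 with an SE of 0.11 (adjusted p = 0.381 in limma). The last steps, which move, add and reduce double bonds of the ring, differed by -0.040 (Ebp), -0.0020 (Sc5d) and -0.011 (Dhcr7). No interval of the 10 excluded 0.

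**Figure D3:**
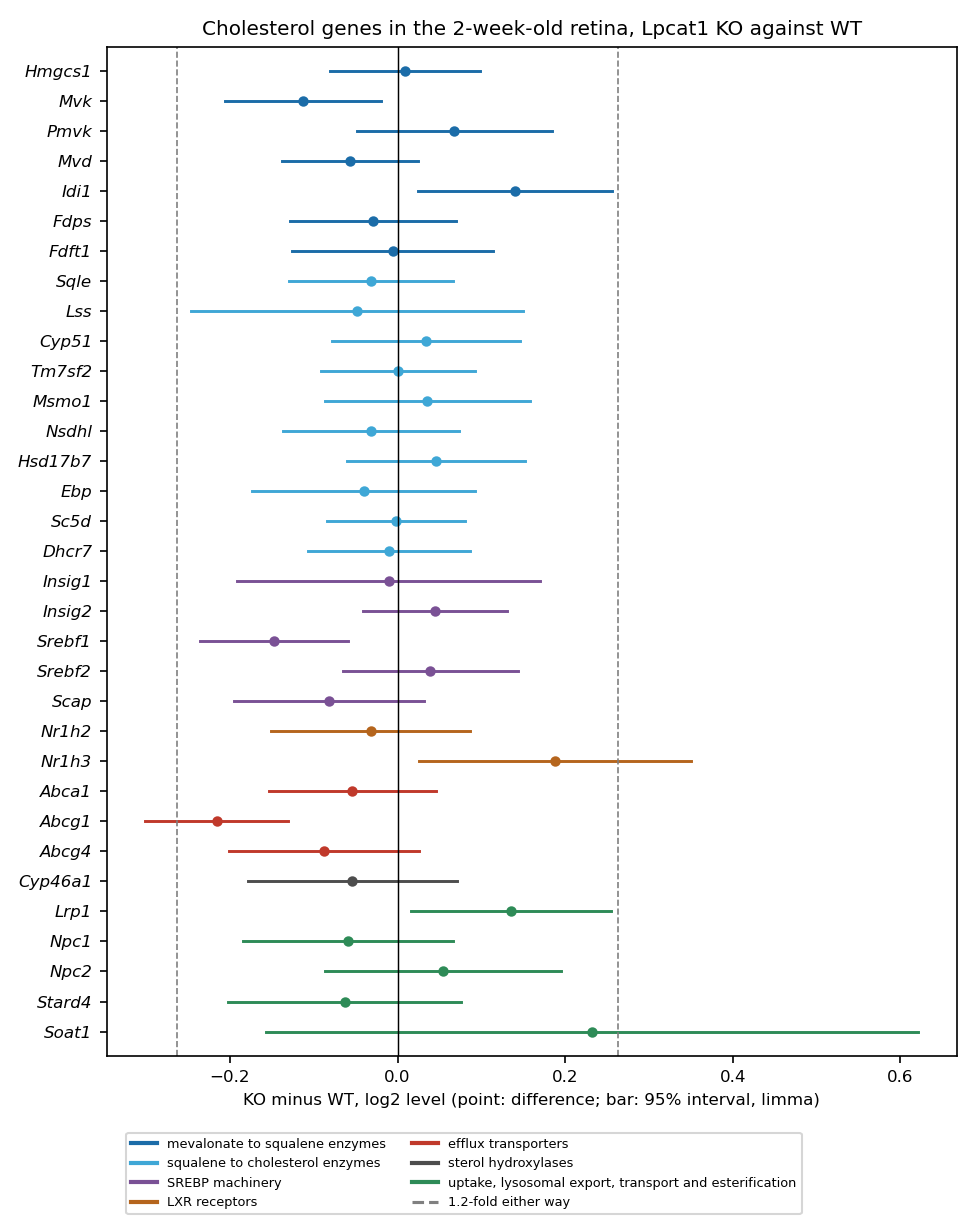
KO minus WT difference on the log2 scale (point) and its 95% interval from limma (bar) for the 33 genes tested, coloured by role and ordered along the pathway, with dashed lines at 1.2-fold either way. The 17 synthesis enzymes lie within the lines at this scaling, Idi1 only just, Abcg1 lies to the left with an interval of -0.30 to -0.13, and Soat1 has the widest bar.

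The sterol-sensing genes gave a median of -0.011, and 0 of 5 was called. Insig1, which holds Scap in the endoplasmic reticulum and is itself an SREBP target, read -1.25, -1.51, -1.46 and -1.35 in WT and -1.35, -1.38, -1.29 and -1.58 in KO. Its arrays were spread widely within both genotypes, and the difference was -0.011 (SE 0.079, interval -0.19 to 0.17). Insig2, its relative that does not depend on SREBP in the same way, differed by 0.045 (interval -0.041 to 0.13), and Srebf2, which encodes SREBP-2, by 0.039 (interval -0.066 to 0.14). Scap read 4.29 to 4.38 in WT and 4.16 to 4.35 in KO, a difference of -0.081 (interval -0.19 to 0.032).

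Srebf1, which encodes SREBP-1, a driver of fatty acid synthesis and a target of LXR, read -2.05, -1.95, -1.97 and -2.05 in WT and -2.15, -2.18, -2.15 and -2.14 in KO. All KO arrays were below all WT arrays. The difference was -0.15 (SE 0.038, interval -0.24 to -0.060), or 90.3% of WT, with an adjusted p of 0.0631 in limma. Over the 24 alternative settings the adjusted p ran from 0.0301 to 0.352 and was under 0.05 in 3, with differences of -0.17 to -0.066. The array does not tell which start of Srebf1 the probe reads, and the start shown above is 1 of 3.

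The LXR receptors themselves were not called. Nr1h2, the LXR found in most tissues, differed by -0.032 (interval -0.15 to 0.087). Nr1h3, the LXR of liver and macrophages, read -1.42, -1.29, -1.12 and -1.20 in WT and -1.10, -1.02, -1.16 and -0.99 in KO. The third KO replicate lay below the highest WT array, so the genotypes overlapped, and the difference was 0.19 (SE 0.071, interval 0.026 to 0.35, adjusted p = 0.155 in limma), with 0.16 from a second probe. Some microglia, Müller glia and cone markers also stood higher in KO as given above, and the part of these cells in this value was not tested.

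The 3 efflux transporters all had lower means in KO, though Abcg4 differed by only -0.011 after quantile normalization, with a median difference of -0.088 beside -0.0059 for the synthesis enzymes and -0.023 for all genes. Averaged over the 3 genes and set against the WT mean of each, the arrays read -0.029 to 0.020 in WT and -0.14 to -0.11 in KO. These averages did not overlap, but they rest on 3 genes of which 1 stood apart, and the contrast between efflux and synthesis is a description with no test. The median kept its sign under all alternatives run and ranged from -0.046 after quantile normalization to -0.12 without the fourth KO replicate.

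Abcg1, which passes cholesterol to high density lipoprotein, read 3.08, 3.06, 3.06 and 3.07 on the WT arrays and 2.89, 2.88, 2.85 and 2.79 on the KO arrays. The WT arrays lay close together and all KO arrays were below them. The difference was -0.22 (SE 0.037, interval -0.30 to -0.13), or 86.1% of WT, with an adjusted p of 0.0217 in limma. It missed the call because the fold was under 1.2, and with no minimum fold it was the only one of the 33 genes to be called lower, where 3.32% of all genes were, and 6.62% in either direction. The difference stayed between -0.23 and -0.18 over 24 alternatives, but the adjusted p, from 0.0018 to 0.0814, was under 0.05 in 14 of them. These 14 include the settings that change only the minimum fold or the adjusted p limit, which repeat the main difference and adjusted p. The other filters, the t-test and the replicate block also leave the difference itself at -0.22. Leaving out any 1 array except the first KO replicate took it over 0.05, to between 0.0530 and 0.0699, and without the first KO replicate it was 0.0297. With rod markers lower in KO as given above, their part in the Abcg1 value was not tested.

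The other transporters overlapped between genotypes. Abca1, which loads cholesterol and phospholipid onto apolipoproteins and is the most used readout of LXR, read -0.074, -0.16, -0.031 and -0.13 in WT and -0.089, -0.18, -0.16 and -0.17 in KO. The first KO replicate lay within the WT range and the other 3 just beneath it, and the difference was -0.054 (SE 0.043, interval -0.15 to 0.045, adjusted p = 0.491 in limma). Abcg4, a close relative of Abcg1 found in neurons, read 5.40, 5.40, 5.43 and 5.48 in WT and 5.27, 5.27, 5.38 and 5.44 in KO. The first 3 KO replicates were below all WT arrays and the fourth was within their range. The difference was -0.088 (SE 0.049, interval -0.20 to 0.026, adjusted p = 0.328 in limma), a second probe gave -0.035, and quantile normalization gave -0.011.

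**Figure D4:**
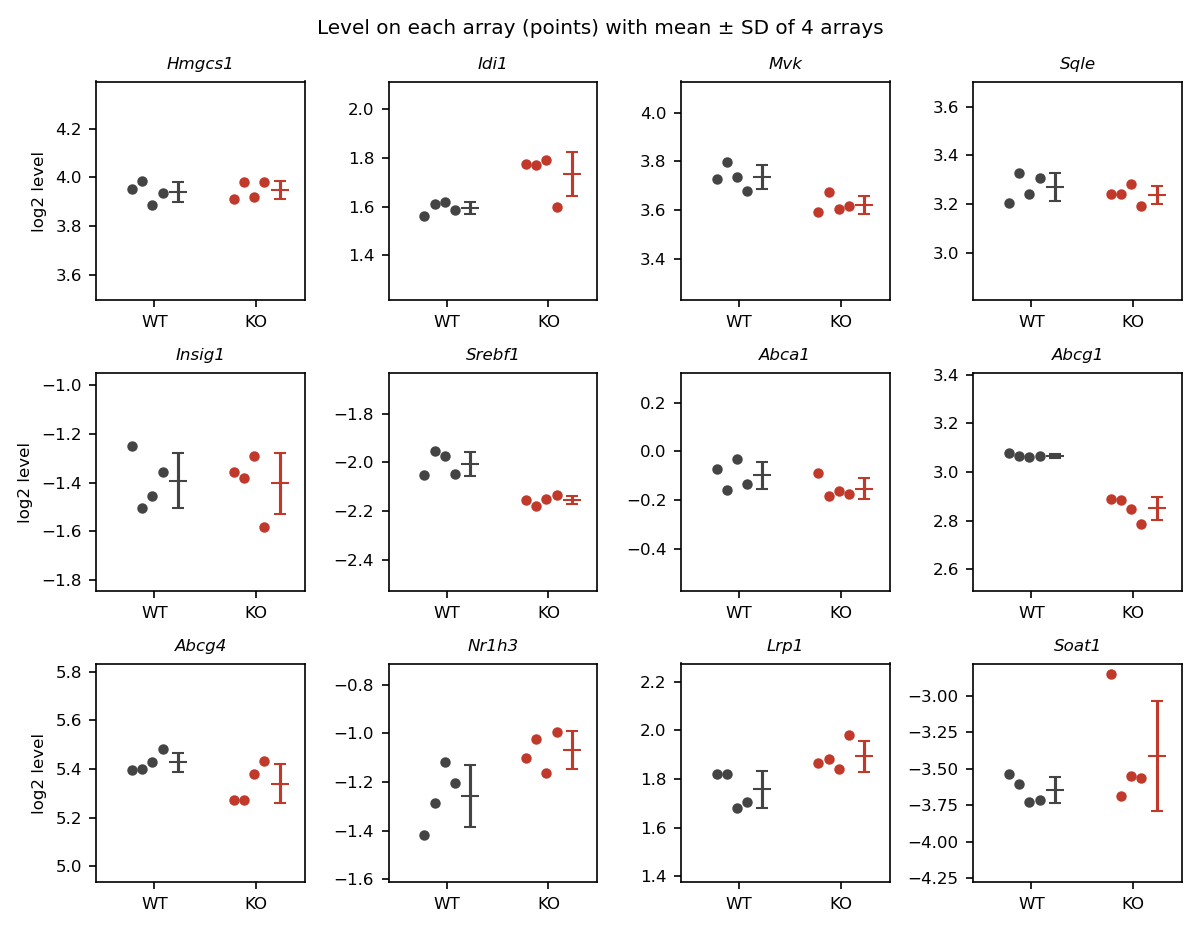
Level of 12 genes on each array (points, log2 signal relative to the array's 75th percentile) with the mean and SD of 4 WT and 4 KO arrays beside them. The vertical axes span the same range except for Soat1, which needs a wider one, and the genotypes are apart for Mvk, Srebf1, Abcg1 and Lrp1.

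The sterol hydroxylases make oxysterols that leave the cell and bind LXR. Cyp46a1, which makes the oxysterol typical of neurons, read -0.42 to -0.59 in WT and -0.46 to -0.61 in KO, a difference of -0.054 (interval -0.18 to 0.070). Cyp27a1, the mitochondrial sterol hydroxylase, was not tested, since its probe was well above background on 1 WT and 2 KO arrays, and no fold is given. The probe is printed 10 times on the array, and its averages were -5.15, -4.93, -5.18 and -4.92 in WT and -4.58, -4.62, -4.88 and -4.20 in KO.

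Among the 5 genes of uptake, lysosomal export, transport and esterification 0 was called, and the median difference was 0.054. Lrp1, a large receptor that takes up lipoproteins carrying ApoE, read 1.82, 1.82, 1.68 and 1.70 in WT and 1.87, 1.88, 1.84 and 1.98 in KO. Every KO array was above every WT array, and the difference was 0.14 (SE 0.052, interval 0.016 to 0.26, adjusted p = 0.162 in limma). Npc1 and Npc2, the pair of proteins that lift cholesterol out of the lysosome, differed by -0.059 (interval -0.18 to 0.066) and 0.054 (interval -0.086 to 0.19). Stard4, a carrier of sterol between membranes and an SREBP-2 target, differed by -0.063 (interval -0.20 to 0.076).

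Soat1, which esterifies cholesterol for storage, was the least certain of the genes tested here. It read -3.54, -3.60, -3.73 and -3.71 in WT and -2.85, -3.69, -3.55 and -3.56 in KO. The first KO replicate stood alone, and the other 3 lay within the WT range. The difference of 0.23 had an SE of 0.17 and an interval of -0.16 to 0.62 (adjusted p = 0.449 in limma), so neither no change nor a change above 1.2-fold lies outside it. Without the first KO replicate the difference was 0.045 (SE 0.064).

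**Figure D5:**
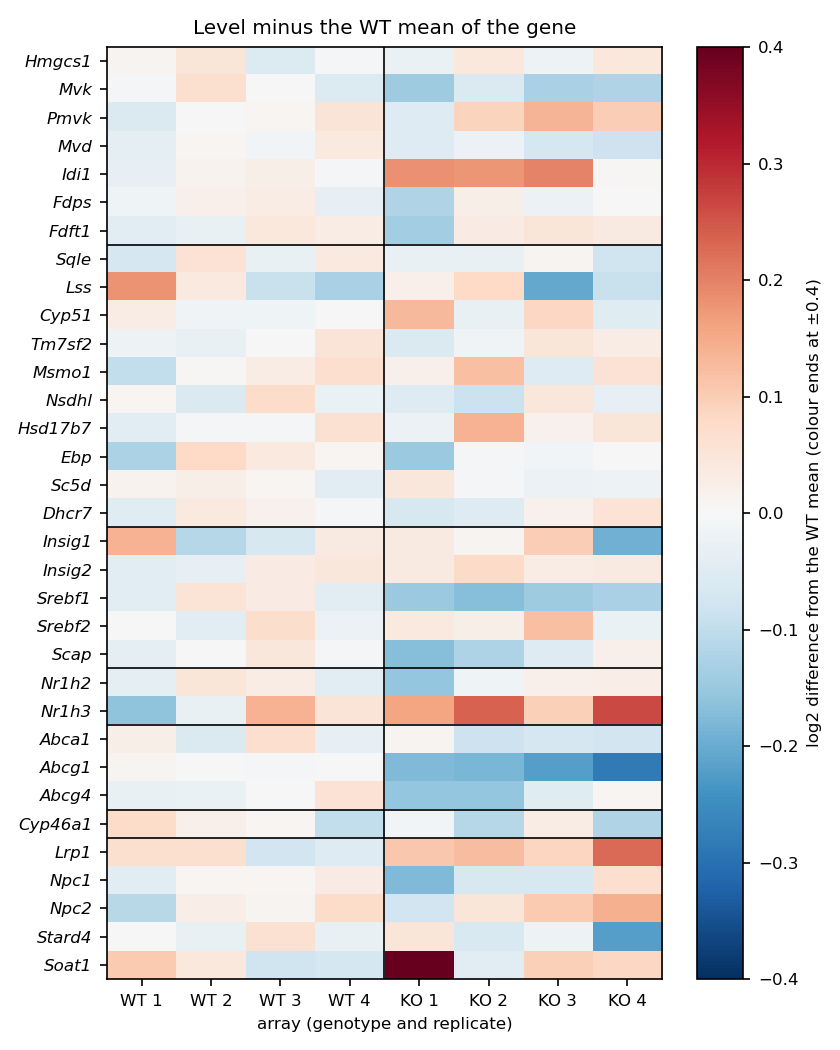
Level of each of the 33 genes on each array minus the gene's WT mean (colour, log2 scale, ending at 0.4 either way), with horizontal lines between roles and a vertical line between the genotypes. Rows for Mvk, Srebf1 and Abcg1 are blue on all 4 KO arrays and the rows for Lrp1 and Nr1h3 are red on them, while the rows of most synthesis enzymes hold both colours in both genotypes.

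How far the enzymes varied together from array to array within genotypes was also read. Over the 136 pairs of synthesis enzymes the median correlation of their deviations from the genotype means was 0.10, with 80 pairs above 0, and over all 528 pairs of the 33 genes it was 0.037. These are descriptions over 8 arrays that share labelling and slide.

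A further 39 genes of the same pathways, listed by function, were read beside them. Of these 38 were tested and 2 were called, both higher in KO, where 1.99% of all genes tested were called higher, and the median difference was 0.0018. Apoe, the main carrier protein of cholesterol between glia and neurons and an LXR target, read 6.45, 6.45, 6.55 and 6.52 in WT and 6.74, 6.76, 6.80 and 6.81 in KO. It rose by 0.29 (SE 0.040, limma adjusted p = 0.0122), with no overlap of the genotypes. Lipa, the lysosomal acid lipase that frees cholesterol from its esters, read -0.71, -0.80, -0.88 and -0.87 in WT and -0.64, -0.50, -0.55 and -0.49 in KO. It rose by 0.27 (SE 0.055, adjusted p = 0.0340 in limma), again with no overlap. The Lipa call was lost in 6 of the 8 runs that left out 1 array, with an adjusted p of 0.0752 to 0.0932 in limma, and held without the first WT or the first KO replicate. It was also lost after a median shift (adjusted p = 0.0537 in limma), with no filter on dim probes (0.0996) and with replicate number as a block (0.0859). Other losses came after normexp, where the fold was under 1.2, and with a minimum fold of 1.5. In all, the Lipa call held in 13 of 24 alternatives. The Apoe call held in 22 of 24 alternatives, all but no filter on dim probes and a minimum fold of 1.5. Müller glia and microglia, both of which are known to express Apoe, had markers that were higher in KO as given above, and their part in these values was not tested.

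By list, 0 of 4 further synthesis genes was called (median 0.014), 1 of 10 uptake and lipoprotein genes (Apoe, median 0.038), 0 of 8 efflux and LXR pathway genes (median 0.0087), 0 of 3 tested oxysterol and bile acid genes (median -0.047), 1 of 8 sterol transport and storage genes (Lipa, median 0.0087) and 0 of 5 SREBP processing genes (median -0.071). Ch25h, cholesterol 25-hydroxylase, was not well above background on any array. Hsd3b7, picked from these lists after its values were seen, is an enzyme of bile acid synthesis. It differed by 0.20 (SE 0.040, adjusted p = 0.0316 in limma) and fell short of the minimum fold.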

How the data were processed

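Total RNA of the whole retina from 4 WT and 4 KO samples was labelled with Cy3 and hybridised to Agilent SurePrint G3 mouse arrays, and the authors quantified the scans with Feature Extraction (version 10.7.1.1 in the submitters' processing notes). The deposited scanner files hold intensity on a linear scale, background-subtracted, for 62976 spots, with no scaling between arrays per the file headers. The authors' table of log2 values, shifted by the 75th percentile, differed from the levels used here by a constant of 0.12 to 0.15 per array and served as an alternative. No column of other samples was present (0 columns).

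Each spot's processed signal was taken to log2, and the 75th percentile of the 59305 spots that are not controls was subtracted array by array. Outlier spots (86 to 147 per array) were left out, and repeated spots were averaged. Symbols came from a RefSeq table (GRCm38.p6, names only, since the array's design uses mm9) by transcript, which named 26413 of 55681 probes. For a gene with several probes, as for 11 of the 34, the probe with the highest mean over 8 arrays was used. Testing was limited to the 33972 probes that stood well above background throughout 1 or both genotypes. They entered a limma model (lmFit, eBayes; limma 3.58.1, R 4.3.3) of genotype alone, with p adjusted over all of them, and a call needed over 1.2-fold and an adjusted p below 0.05 (2.92% of probes). The fit was tested on simulated data. The members and the lists of other pathway genes and markers were chosen with earlier results of these data known. Named genes were all 34 members, Lpcat1, the called genes of the other lists, and up to 3 called markers a list, with Ch25h and Hsd3b7 added after their values were seen. Some genes of these lists are not reported here. Start windows came from RefSeq.

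Samples with the same replicate number had residual correlations of 0.25, 0.069, 0.037 and 0.11. Not all were over 0.1, and the numbers were not taken as pairs. Samples of unlike number were not compared, so these values cannot settle whether the numbers are pairs. Alternatives were a median shift, quantile normalization, the percentile of probes detected on every array, normexp correction (offset 50) on median signals, since mean signals were not used here, the authors' values, other filters and thresholds, outlier spots kept, trend and robust eBayes, array weights, the methods' t-test, the mean of a gene's probes, a replicate block and leaving out each array. Settings that change only the minimum fold or the adjusted p limit repeat the main difference and adjusted p, and count among the 24. With 4 arrays per genotype the number of arrays limits the precision. At the median SE of the members (0.049), a difference of about 0.21 on the log2 scale was needed for an adjusted p under 0.05.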

Additional observations from a re-analysis of the deposited data

Results flagged for a closer look

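In 5 of the 68 sets of 4 arrays (34 genes in 2 genotypes) 1 array stood far from the other 3, where chance gives about 1 in 20 sets, and all 5 were in KO. The value given is the gap to the nearest array divided by the range of the 4. Idi1 was lowest on the fourth KO replicate, at 1.60 against 1.77 to 1.79 (0.888). Fdft1 was lowest on the first KO replicate, at 2.33 against 2.50 to 2.51 (0.921). Ebp was also lowest there, at 3.50 against 3.63 to 3.65 (0.902). Insig2 was highest on the second KO replicate, at 2.36 against 2.31 to 2.32 (0.857). Soat1 was highest on the first KO replicate, at -2.85 against -3.69 to -3.55 (0.834). The cause was not tested.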

How the results depend on the processing

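No gene of the 34 was called higher under any alternative, and 1 (Abcg1) was called lower with no minimum fold and 0 otherwise, leave-one-out runs included (0 to 0). The median of the synthesis enzymes was 0.017 after quantile normalization and -0.029 after normexp, and ran from -0.016 to 0.0020 with 1 array left out. The median of the efflux transporters was -0.046 after quantile normalization, -0.069 with the percentile over probes detected on all arrays, -0.071 after a median shift, -0.060 after normexp and -0.061 with the probes of a gene averaged, and ran from -0.12 (without the fourth KO replicate) to -0.065 (without the second KO replicate). Scaling or background correction turned the sign of 10 of the 33 genes, all with a difference of at most 0.036 in size: Hmgcs1, Fdps, Fdft1, Sqle, Msmo1, Nsdhl, Sc5d, Dhcr7, Insig1 and Nr1h2.

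The 992 probes called over the whole array became 660 after a median shift, 246 with no filter on dim probes, 138 with a minimum fold of 1.5, 1869 with none and 1551 at an adjusted p under 0.1, and 369 (without the second WT replicate) to 1183 (without the first KO replicate) with 1 array left out. With the percentile over probes detected on all arrays, 563 were higher and 374 lower, against 470 and 522. With replicate number as a block 395 were called, and the adjusted p was 0.0606 for Abcg1 and 0.0859 for Lipa with that block. The cause of these shifts was not tested. Signal over background limits Cyp27a1.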
